A study of Mus musculus with 2 samples.

Results

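The interferon response genes described here are 41 mouse genes chosen by symbol from a written list of interferon-induced effectors, regulators and nucleic acid sensors. The rule itself uses no measured value, and all 41 were found among the 43346 mouse genes of the deposited tables, 21474 of which are protein-coding. The tissue was stomach from C57BL/6J mice of both sexes, 8 weeks old, with no treatment named and a health state given as unknown. Long polyadenylated RNA was sequenced as strand-specific read pairs of 76 nucleotides, in 2 libraries numbered as biological replicates 1 and 2. The study therefore holds 1 group and no contrast, so every value below is a description without a p-value. Each library comes from a pool of littermates, and both pools carry the same donor record. The spread given here is that between these libraries, and it may be partly technical.

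Interferons are secreted proteins, and many of them are released by cells that sense foreign or misplaced nucleic acid. Type I interferons bind a receptor made of Ifnar1 and Ifnar2, and interferon gamma binds one made of Ifngr1 and Ifngr2. The receptors act through Jak family kinases and Stat transcription factors. Type I signalling brings Stat2 and Irf9 to a promoter sequence named the interferon-stimulated response element. Many of the genes it switches on are antiviral, and many of them keep a low tonic level in healthy tissue. In the gut lining these genes form part of the defence at the mucosal surface.

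Replicate 1 held 51633637 mouse read pairs and replicate 2 held 61635982, at which 3 read pairs on a transcript of 1 kb equal 0.0653 and 0.0541 TPM (a transcript's share of all transcripts, corrected for length). Defining transcripts of the stomach were present in both libraries: all 5 parietal cell, all 6 pit cell and all 5 chief cell markers reached TPM 1, as did all 7 smooth muscle and all 7 squamous forestomach markers. Gif was counted in both the parietal and the chief cell list. The libraries thus held transcripts of glandular, squamous and muscle layers together. In such bulk tissue, fewer cells of a type and less RNA per cell cannot be told apart.

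The interferon response genes were present at low to moderate levels that ranged over several orders of magnitude. A TPM of at least 1 in both libraries was reached by 32 of the 41, against 48.9% of protein-coding genes and 25.2% of all mouse genes. Their median level was 3.37 TPM, against 1.15 TPM over protein-coding genes, and 33 of the 41 stood above that median of protein-coding genes. By mean TPM, 7 members lay below 1, 19 between 1 and 10, 13 between 10 and 100, and 2 above 100. The summed TPM of the 41 was 1062 in replicate 1 and 898 in replicate 2. Ifitm2 and Ifi27 alone held 46.2% and 47.3% of that sum, and the 7 highest members held 80.0% and 77.2%. The order of the 2 sums depends on the total used. Leaving Clps, Pgc and spike-ins out of it multiplies TPM by 1.45 in replicate 1 and 1.78 in replicate 2. The sum of the 41 is then higher in replicate 2.

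**Figure D1:**
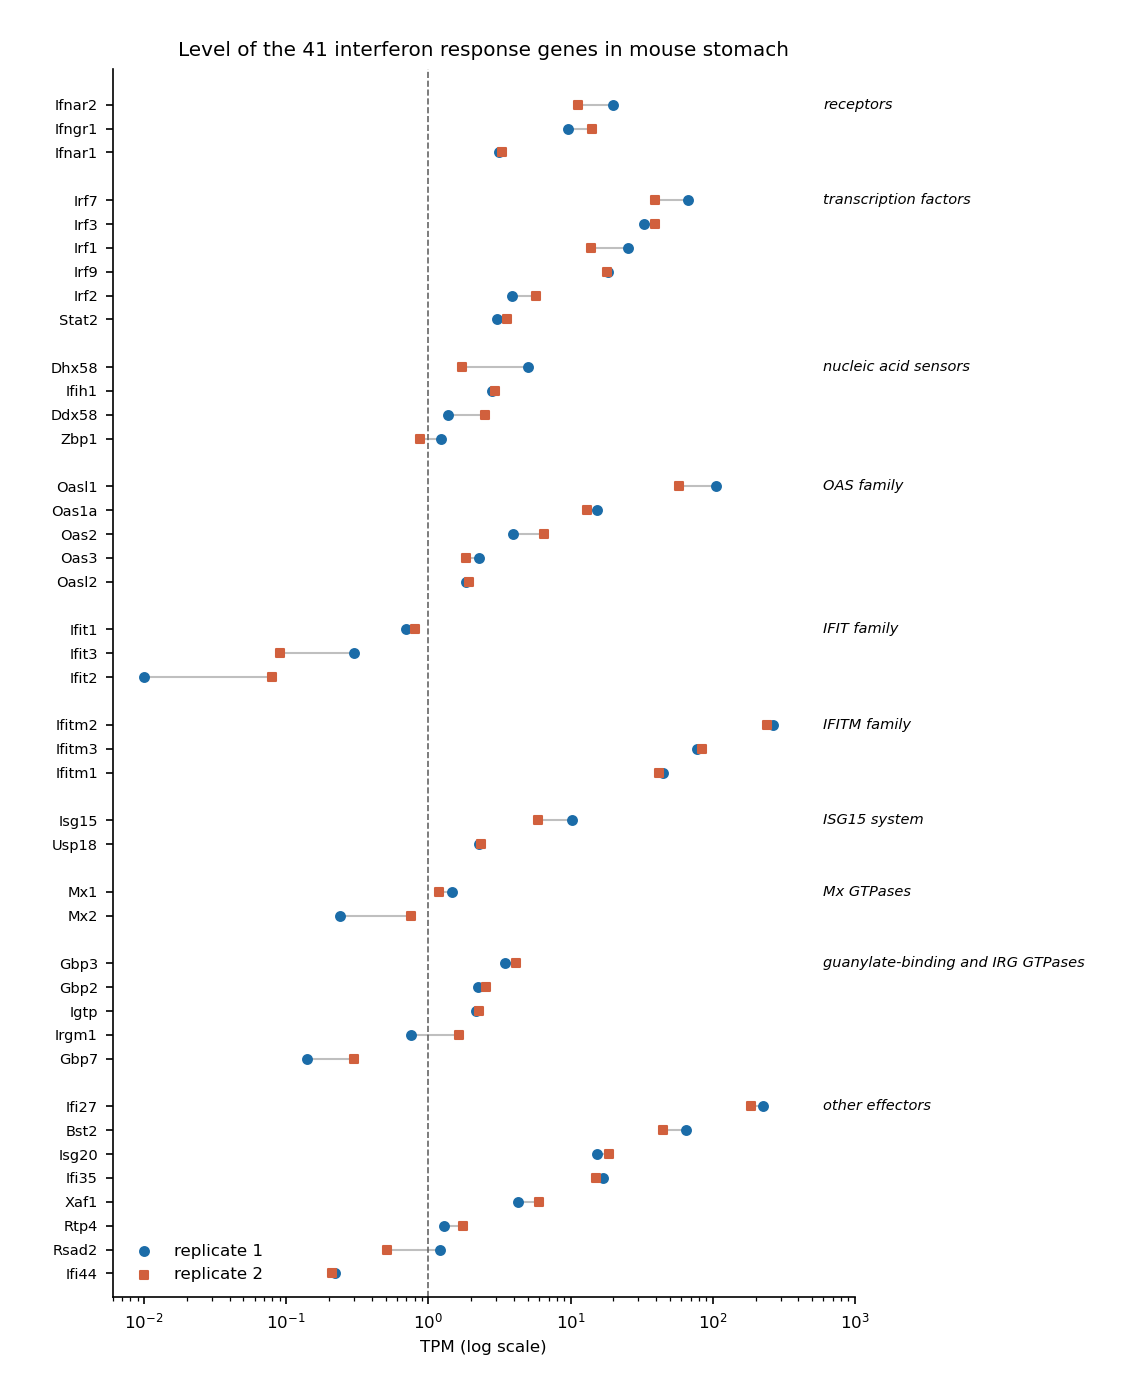
Level in TPM (log axis) of each of the 41 interferon response genes, grouped by role, with circles for replicate 1 and squares for replicate 2 joined by a line; the dashed line marks TPM 1. The 3 IFITM genes lie between 42.1 and 263 TPM, while all 3 IFIT genes lie left of the dashed line in both libraries.

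The promoters of the members were read next, because the response element is the sequence through which type I interferon acts. RefSeq promoter windows of GRCm38.p6 were found for 33 members, with 39 windows in all. The 250 bases before each start were searched on both strands for the core of the interferon-stimulated response element, with any base at its variable positions. That core stood in 15 of the 39 member windows (38.5%), each from a different member, against 978 of all 32851 windows of the same length (2.98%). In 13 of those 15 the nearest site began within 150 bases of the start. The same share over all windows with the core was not counted, so this placement is not shown to be particular to the members. A match is a description of letters and not of binding.

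Windows are shown for the member of highest level in each of 4 families that carry the core, and for Oasl1, the highest member of the OAS family, which does not. Each is written 5′ to 3′ on the strand of its gene and ends at the base before the start; capitals mark the core, as found on either strand.
Ifitm2 (chr7:140955962-140956211, minus strand)
Ifitm2: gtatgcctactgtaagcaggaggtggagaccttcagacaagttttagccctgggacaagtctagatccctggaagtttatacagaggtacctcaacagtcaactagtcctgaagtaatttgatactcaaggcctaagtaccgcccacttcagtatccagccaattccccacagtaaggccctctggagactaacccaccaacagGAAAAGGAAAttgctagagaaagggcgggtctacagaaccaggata
Isg15 (chr4:156200819-156201068, minus strand)
Isg15: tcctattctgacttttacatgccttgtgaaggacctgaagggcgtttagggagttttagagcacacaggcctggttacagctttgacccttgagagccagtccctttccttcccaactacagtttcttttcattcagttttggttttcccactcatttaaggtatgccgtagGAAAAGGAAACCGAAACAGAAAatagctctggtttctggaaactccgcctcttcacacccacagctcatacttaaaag
Gbp3 (chr3:142559794-142560043, plus strand)
Gbp3: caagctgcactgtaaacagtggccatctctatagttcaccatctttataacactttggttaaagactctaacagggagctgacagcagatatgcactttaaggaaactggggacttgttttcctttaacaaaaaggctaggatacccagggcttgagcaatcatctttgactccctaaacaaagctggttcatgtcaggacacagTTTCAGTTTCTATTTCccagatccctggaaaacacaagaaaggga
Ifit1 (chr19:34640639-34640888, plus strand)
Ifit1: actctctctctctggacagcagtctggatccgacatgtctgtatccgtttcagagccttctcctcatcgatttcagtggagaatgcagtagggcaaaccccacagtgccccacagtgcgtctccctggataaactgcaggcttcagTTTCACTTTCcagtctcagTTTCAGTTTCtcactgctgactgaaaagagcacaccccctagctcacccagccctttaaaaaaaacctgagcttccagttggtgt
Oasl1 (chr5:114922990-114923239, plus strand)
Oasl1: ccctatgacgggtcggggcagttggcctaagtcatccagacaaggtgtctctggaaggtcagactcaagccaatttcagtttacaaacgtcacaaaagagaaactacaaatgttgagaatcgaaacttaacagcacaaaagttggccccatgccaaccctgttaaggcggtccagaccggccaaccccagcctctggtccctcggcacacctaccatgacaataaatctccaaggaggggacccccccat

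Isg15 carried 3 overlapping copies of the core in a run of 22 bases, the nearest of which began 66 bases before its start. Gbp3 carried 2 overlapping copies, Ifit1 carried 2 separate copies and Ifitm2 carried 1. The nearest copy began 39 bases before the start in Gbp3, 85 in Ifit1 and 46 in Ifitm2. The members with the core were mostly not the abundant ones. It stood in 4 of 6 members below a mean TPM of 1, in 8 of 13 at 1 to 10 and in 3 of 14 at 10 or more, the last being Ifitm2, Bst2 and Oas1a. The median of mean TPM was 2.40 over the 15 members with the core and 15.7 over the 18 without. Irf7, Ifitm3, Irf3 and Oasl1 were among the abundant members whose windows held no match, which says only that these letters are not in those 250 bases.

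**Figure D2:**
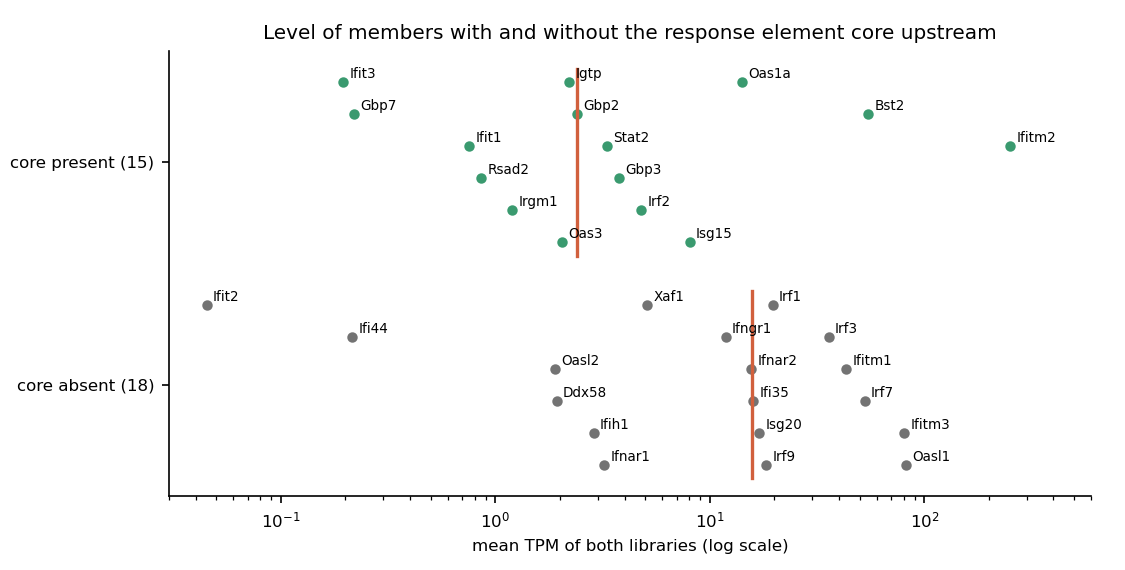
Mean TPM (log axis) of the 33 members with a promoter window, split by whether the response element core stands in the 250 bases before the start; vertical offsets only separate the labels and bars mark the medians, 2.40 TPM with the core (15 members) and 15.7 TPM without it (18 members). Ifitm2, Bst2 and Oas1a are the members with the core at 10 TPM or more.

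The receptor chains were all detected. Ifnar1, the chain of the type I receptor that binds the kinase Tyk2, had 3.12 TPM in replicate 1 and 3.31 TPM in replicate 2. Its partner Ifnar2, which binds the ligand with high affinity, had 19.8 and 11.3 TPM. Ifngr1, the ligand-binding chain of the interferon gamma receptor, had 9.60 and 14.1 TPM. Ifnar2 thus stood above Ifnar1 in both libraries, and Ifngr1 lay between them in replicate 1 only.

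Among the transcription factors, Irf7 and Irf3 were the most abundant. Irf7, which drives the genes for interferon alpha, had 66.6 and 39.0 TPM in replicates 1 and 2. Irf3, which drives the gene for interferon beta and is present in most cells without induction, had 32.6 and 39.1 TPM. Irf7 was above Irf3 in replicate 1 and level with it in replicate 2. Irf1, an activator induced above all by interferon gamma, had 25.3 and 14.01 TPM, and Irf2, which competes with it for the same sites, had 3.85 and 5.71 TPM. The members of the type I signalling complex differed in level. Irf9 had 18.4 and 18.2 TPM and Stat2 had 3.05 and 3.58 TPM, so Irf9 exceeded Stat2 in both libraries by far more than either varied.

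Sensors of foreign RNA and DNA averaged from 1.045 to 3.365 TPM, at or below the members' median of 3.365 TPM. Ifih1 (MDA5), which binds long double-stranded RNA, had 2.81 and 2.94 TPM. Ddx58 (RIG-I), which binds the ends of short double-stranded RNA, had 1.38 and 2.48 TPM. Dhx58 (LGP2), a regulator of both that lacks their signalling domains, had 5.01 and 1.72 TPM on nearly equal numbers of read pairs, 239 and 240. Zbp1, which binds nucleic acid in the Z conformation, had 1.22 and 0.87 TPM and so missed TPM 1 in replicate 2.

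The OAS family spanned the widest range among the families found throughout above TPM 1. Its enzymes sense double-stranded RNA and make short oligoadenylates. Oasl1, a member without that enzyme activity that in the mouse restrains the translation of Irf7 mRNA, had 106 and 58.3 TPM. Oas1a had 15.2 and 13.0 TPM, and Oas2 had 3.95 and 6.54 TPM. Oas3 and Oasl2 stayed near 2, at 2.28 and 1.83 TPM and at 1.85 and 1.93 TPM. Oasl1 and Irf7 were both higher in replicate 1.

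Membrane-acting and RNA-binding effector families lay at opposite ends. The IFITM proteins sit in cell membranes and hinder the fusion of virus with the host membrane. Ifitm2 (chr7:140954837-140955987, minus strand, mm10) had 263 and 241 TPM, the highest mean of any member, 252 ± 16.1 (SD, n = 2), which ranked it 295 among all mouse genes. Ifitm3 had 76.9 and 84.6 TPM and Ifitm1 had 44.5 and 42.1 TPM. The order of the 3 was the same in both libraries, with gaps larger than the difference between the libraries. The IFIT proteins bind viral RNA and block its translation, and their genes lie side by side on chromosome 19. Ifit1 had 0.70 and 0.81 TPM on 99 and 137 read pairs, and Ifit3 had 0.30 and 0.09 TPM on 27 and 10 read pairs. Ifit2 rested on 2 read pairs in replicate 1, below the limit of 3 that a count of 0 allows, and 19 in replicate 2. All 3 IFIT genes were thus below TPM 1 in both libraries, although the windows of Ifit1 and Ifit3 each held 2 copies of the core.

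Isg15, a ubiquitin-like protein that is attached to other proteins, had 10.2 and 5.93 TPM. Usp18, which removes it and also blocks the type I receptor, had 2.28 and 2.33 TPM. The Mx GTPases trap viral nucleocapsids, and C57BL/6 mice are known to carry defective alleles of both genes. Mx1 had 1.47 and 1.18 TPM. Mx2, whose annotation is a polymorphic pseudogene, had 0.24 and 0.75 TPM on 31 and 29 read pairs. Neither Mx gene was above 1.47 TPM in either library.

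The guanylate-binding and immunity-related GTPases, which attack the vacuoles of intracellular pathogens and are induced above all by interferon gamma, were all low. Gbp3 had 3.44 and 4.10 TPM, and Gbp2 had 2.24 and 2.55 TPM. Igtp had 2.15 and 2.26 TPM. These 3 varied little between the libraries. Most of the Gbp3 TPM, 89.8% and 91.0%, lay in Gbp3-205, a coding transcript of 477 bases with an expected 48.5 and 73 read pairs. By read pairs Gbp3, with 97 and 126, stood below Gbp2, with 299 and 407. Irgm1, a regulator of the other immunity-related GTPases, had 0.76 and 1.63 TPM, and Gbp7 had 0.14 and 0.30 TPM. The 5 genes together summed to 8.73 and 10.8 TPM, against 385 and 367 TPM for the 3 IFITM genes.

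The remaining effectors also ranged widely. Ifi27, a small hydrophobic protein, had 227 and 184 TPM and was second only to Ifitm2. Bst2 (tetherin), which holds budding virus at the cell surface, had 65.0 and 44.7 TPM. The exonuclease Isg20 had 15.4 and 18.5 TPM, and Ifi35, a leucine zipper protein, had 16.9 and 14.98 TPM. Xaf1, which binds the inhibitor of apoptosis Xiap, had 4.27 and 5.96 TPM, and Rtp4, a chaperone of membrane receptors, had 1.29 and 1.75 TPM. Rsad2 (viperin), which makes a chain-terminating nucleotide, had 1.21 TPM from 250 read pairs and 0.51 TPM from 125. Ifi44 had 0.22 and 0.21 TPM. Rsad2, Zbp1 and Irgm1 were the members on different sides of TPM 1 in the libraries.

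Differences between the libraries were then set beside those of all genes, as log2 ratios of scaled counts, replicate 2 over replicate 1. The intervals given with them are exact 95% intervals for counting error alone. Of the 34 members whose mean TPM was at least 1, none was past 2-fold higher in replicate 2, against 2.66% of the 11582 mouse genes at that level. Ifnar2 was the 1 member past 2-fold lower, against 5.96% of those genes. The members' median absolute log2 ratio was 0.29 and that of all genes 0.33. The middle 90% of all genes ran from -1.07 to 0.80, and 33 of the 34 members fell within it. A log2 ratio below 0 was found for 16 of the 34, against 54.3% of all genes.

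The direction went with the level, as it did over the whole tissue. Of the 15 members at a mean TPM of 10 or more, 11 were lower in replicate 2, beside 70.5% of protein-coding genes at that level. Of the 19 members at 1 to 10, 5 were lower, beside 42.0% of protein-coding genes. Irf7 had 4141 and 3150 read pairs, a log2 ratio of -0.68 (interval -0.75 to -0.62). Oasl1 had a log2 ratio of -0.78 (interval -0.84 to -0.73) and Isg15 had one of -0.78 (interval -1.03 to -0.53). Higher in replicate 2 were Irgm1 at 0.70, Ddx58 at 0.69 and Oas2 at 0.60. All 4 of the guanylate-binding and immunity-related GTPase genes at this level had ratios above 0, though the intervals of Gbp2, Gbp3 and Igtp held 0. The counting interval lay wholly above 0 for 11 of the 34, against 33.1% of all mouse genes at that level, and wholly below 0 for 14, against 43.6%. It held 0 for the other 9 members.

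**Figure D3:**
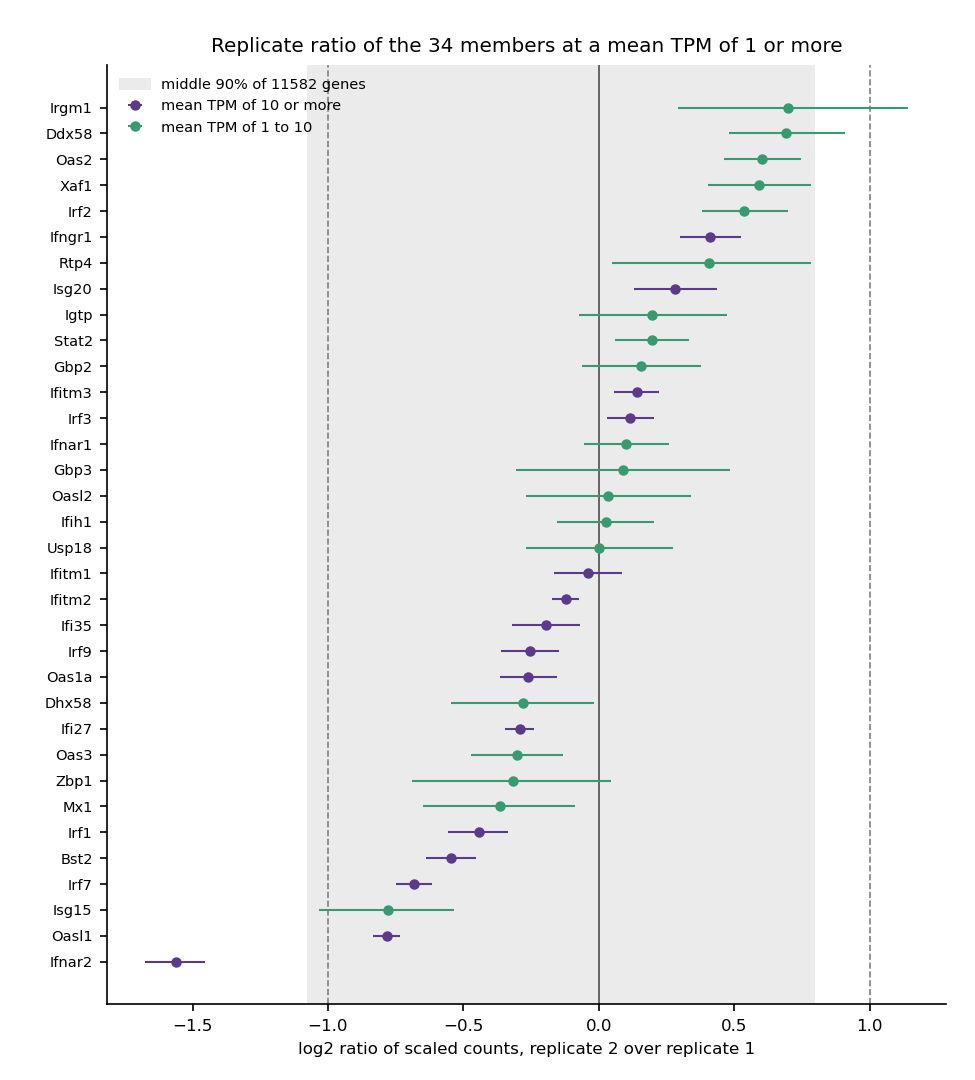
Log2 ratio of scaled counts, replicate 2 over replicate 1, of the 34 members whose mean TPM is at least 1, with exact 95% intervals for counting error; the grey band spans the middle 90% of all 11582 genes at that level and dashed lines mark 2-fold. Ifnar2, at -1.56, is the only member outside the band.

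Ifnar2 stood apart, and its difference lay in 1 transcript. It was given 2265 and 936 read pairs by the authors' model, a log2 ratio of -1.56 (interval -1.67 to -1.45). On the log2(TPM + 1) scale its difference was -0.75, short of 2-fold, and Dhx58, at -1.14, was the 1 member past it. The long coding transcript Ifnar2-201, of 3047 bases, had 12.2 and 2.94 TPM. The short coding transcript Ifnar2-204, of 807 bases, had 7.62 and 8.34 TPM, so it held 38.5% of the gene's TPM in replicate 1 and 73.6% in replicate 2. Ifnar2 is the first of 4 cytokine receptor genes on the plus strand within 193 kb of chromosome 16. Il10rb, the next, had 12.5 and 11.4 TPM, and Ifnar1, the third, was given above. Ifngr2, the last and the partner of Ifngr1, had 57.9 and 16.9 TPM, a log2 ratio of -1.81. The genes at both ends of the cluster were therefore past 2-fold lower in replicate 2 and the genes between them were not.

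The transcripts behind each level were examined next. Of these 34 members, 8 had a single transcript and 26 had several. In 8 of the 26 the leading transcript by TPM was not a protein-coding one in GENCODE M21, against 20.1% of the 8084 protein-coding genes at that level with several transcripts. By shares of expected counts it was 6 of the 26, against 10.6%. Irf3 is counted among them because 7 of its 9 transcripts, with the leading one at 40.6% and 29.9% of its TPM, have no entry in M21. In 7 members some transcript's share differed by over 25 points between the libraries. The share of all genes with such a difference was not counted, so this count says nothing particular to the members.

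Ifih1 was the extreme case. Its transcript Ifih1-205, a retained intron form, held 89.7% and 91.5% of its TPM, while protein-coding transcripts held 6.76% and 6.46%, or 0.19 TPM in each library. The spliced reads were few as well. In the junction table, which pools both libraries, 33 reads crossed its annotated junctions, on 4 of 17 introns, for 1045 read pairs. Reads per junction, scaled to read pairs and transcript length, put Ifih1 at percentile 5.14 of the 9993 protein-coding genes measured, the lowest of the members. Ifnar1 was next, at percentile 6.04 with 73 junction reads. Oas1a was the highest of the members at percentile 92.1, with 2127 junction reads over all 6 of its annotated introns.

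In Ifi27 the retained intron transcript Ifi27-209, of 527 bases, held 63.7% and 61.0% of the TPM, so that coding transcripts gave 69.8 and 57.1 of its 227 and 184 TPM. In Irf9, Irf9-201 held 55.3% and 62.4%, and in Oas2, Oas2-204 held 64.6% and 75.1%; both are retained intron forms. Oasl1-205, a processed transcript of 682 bases, held 49.4% and 43.4% of the TPM of Oasl1 but 19.3% of its expected count in replicate 1, since a short transcript weighs more per read in TPM. Ddx58-205, also a processed transcript, held 65.2% and 51.4%. For Oasl1 and Irf9 the leading transcript by expected counts was a coding one, Oasl1-201 and Irf9-202.

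Among members averaging TPM 1 or more, transcript makeup differed most between the libraries in Igtp, Mx1 and Dhx58, all with a mean TPM below 10. In Igtp, Igtp-202 held 100% of the TPM in replicate 1 and 30.1% in replicate 2. In Mx1, the coding transcript Mx1-202 had 0 and 0.71 TPM while Mx1-205, annotated as a target of nonsense-mediated decay, had 1.40 and 0.35 TPM. In Dhx58 the short processed transcript Dhx58-206, of 440 bases, had 2.64 TPM from an expected 35.7 read pairs in replicate 1 and 0.05 TPM from 0.8 in replicate 2. The coding transcript Dhx58-201 had 1.35 and 1.52 TPM. The difference between the Dhx58 levels in the libraries thus lay in transcripts that rest on few read pairs. In Irf1, the coding transcript Irf1-208 had 14.2 and 3.05 TPM, while Irf1-202 had 7.16 and 7.40 TPM.

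**Figure D4:**
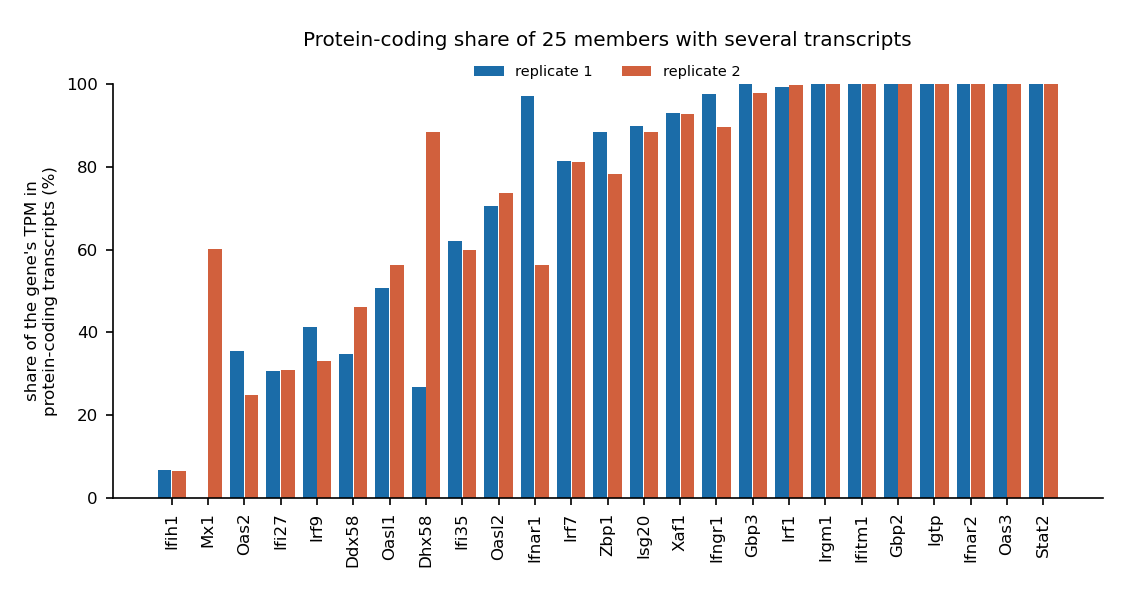
Share of each gene's TPM held by protein-coding transcripts, in percent, in replicate 1 and replicate 2, for the 25 members with several transcripts that average TPM 1 or more (Irf3, most of whose transcripts have no M21 entry, is left out). Ifih1 is lowest in both libraries at 6.76% and 6.46%, apart from Mx1 in replicate 1, and Mx1, Dhx58 and Ifnar1 differ most between the libraries.

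Spliced reads were counted for the members as well. At least 2 junctions with the lengths and spacing of the annotated introns were found for 33 of the 41 members, with 28813 reads in all. Among the 31 members averaging TPM 1 or more that have several annotated introns, 29 were matched in this way, beside 96.3% of protein-coding genes under the same limits. Of the 8 members without, 5 have a single annotated intron (Ifit1, Ifit3, Ifitm2, Ifitm3 and Isg15) and could not reach 2. The rest were Ifit2, Igtp and Rtp4. The median of the scaled junction reads was 7.75 over the 33 matched members, which include some below TPM 1. It was 8.56 over the 9993 protein-coding genes averaging TPM 1 or more, so the 2 sets differ in their level filter. The unit is junction reads per intron at a density of 100 read pairs per kb of transcript. The read pairs are the deposited expected counts, so this measure rests in part on how the model divides reads.

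Several members have relatives of similar sequence. The deposited posterior standard deviation, which shows how far shared reads leave a count open, was above 0 for 9 members. The share of all genes with such a value was not counted. That deviation was at most 1.61% of the count, in Ifit3, and at most 1.07% among members averaging TPM 1 or more, in Oas1a. Its near copy Oas1g had 9.47 and 7.62 TPM. Ifi27l2a, a relative of Ifi27, had 270 and 225 TPM, above Ifi27 itself, and Ifi27l2b had 62.6 and 41.1 TPM. Of the 13 near copies, 6 averaged TPM 1 or more and all 6 had scaled counts that were lower in replicate 2, none past 2-fold; on the TPM scale 5 were lower and Oas1c was higher. In M21, 16 members overlap another gene, 6 of them on the same strand. The share of all genes that do so was not counted, so these counts say nothing particular to the members. The strand setting of the counting is not given in the sources used here, so reads of opposite genes may not be told apart. Irf3 shares 1065 bases with Bcl2l12 on the other strand, which had 15.4 and 13.6 TPM. Igtp shares 7974 bases with Irgm2 on its own strand, which had 2.22 and 1.92 TPM. Ifitm2 shares 1101 bases with Gm45717, a protein-coding gene on its own strand for which no TPM was found.

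Other genes of the pathway, 75 in 7 written lists, showed no listed ligand at TPM 1 beside listed receptors and kinases that were all present. The 13 interferon ligand genes listed, which need not be every mouse interferon gene, were all below TPM 1. Of these, 11, Ifnb1 and Ifng included, had no read pair in either library. The other two were Ifne, with 3 and 0 read pairs, and Ifnz, with 1 and 2. A count of 0 allows up to 3 read pairs, so ligand expression at that depth, or in rare cells, was not detectable. Of the receptor partners and kinases, 7 of 7 were at TPM 1 in both libraries. Ifngr2 was the highest of them, followed by Il10rb and by the kinase Tyk2 at 10.7 and 12.0 TPM.

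Of the 6 negative regulators 4 reached TPM 1. Socs1, which blocks the kinases of the receptors, had 42.7 and 19.3 TPM, a log2 ratio of -1.16 and with Ifngr2 it was 1 of 2 past 2-fold lower among the 41 genes of these lists averaging TPM 1 or more. Socs3 had 33.3 and 21.4 TPM, and the phosphatase Ptpn6 had 8.39 and 8.56 TPM. Of the 11 sensing and signalling genes 7 reached TPM 1. Mavs, the adaptor through which Ifih1 and Ddx58 signal, had 38.0 and 41.4 TPM. Trim25, a ubiquitin ligase that acts on Ddx58, had 27.3 and 31.0 TPM, and Irf5 had 10.6 and 7.98 TPM. Mavs stood far above both sensors it serves in each library.

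For the attachment of Isg15, the activating enzyme Uba7 had 22.3 and 25.9 TPM and the conjugating enzyme Ube2l6 had 5.54 and 5.59 TPM, while the ligase Herc6 stayed below TPM 1. Among 23 other effectors 9 reached TPM 1, led by Lgals3bp, a secreted glycoprotein, at 222 and 215 TPM. Adar, which edits double-stranded RNA, had 14.8 and 17.0 TPM, and the nucleotide hydrolase Samhd1 had 8.66 and 10.01 TPM. Class I antigen presentation was the strongest list, with 11 of 12 genes at TPM 1 in both libraries and a median of 19.1 TPM. H2-K1 had 440 and 358 TPM, H2-D1 had 295 and 219 TPM and B2m had 107 and 140 TPM.

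**Figure D5:**
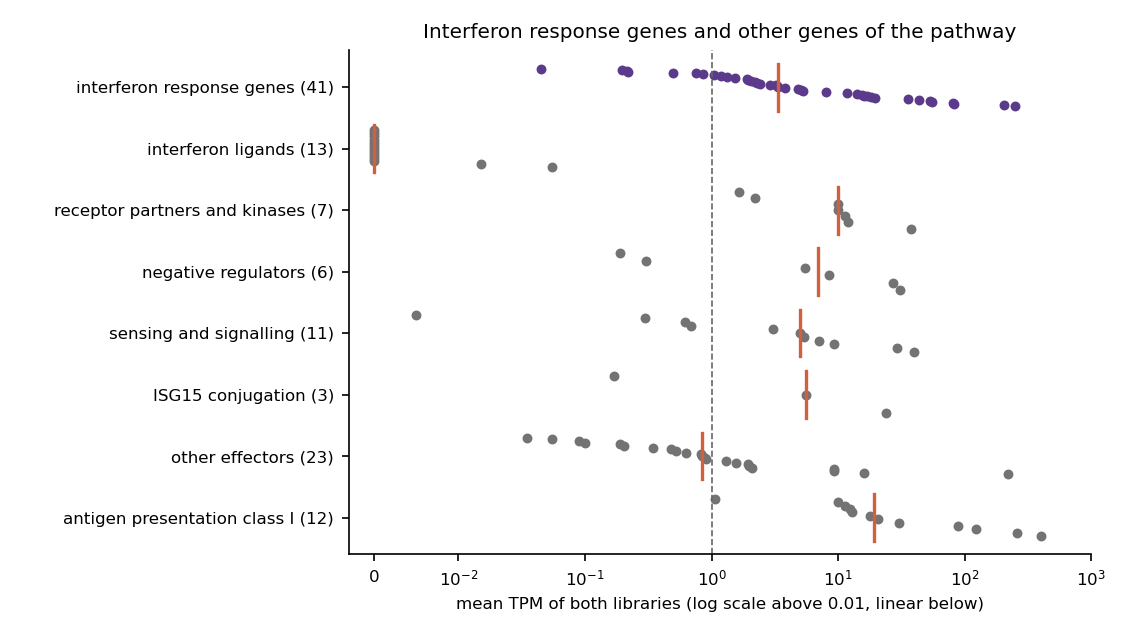
Mean TPM of both libraries (log scale above 0.01, linear below) for each of the 41 interferon response genes and for each gene of 7 other lists of the pathway, with list sizes in parentheses; bars mark medians and the dashed line marks TPM 1. The 13 listed interferon ligand genes all lie left of the dashed line, and the class I antigen presentation genes have the highest median, 19.1 TPM.

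Markers of several cell types differed between the libraries beside the members, in both directions. For scale, a log2 ratio below 0 was found for 54.3% of all mouse genes averaging TPM 1 or more. Among protein-coding genes the share was 70.5% at a mean TPM of 10 or more and 42.0% at 1 to 10. All 7 smooth muscle and all 5 parietal cell markers lay at 10 or more. Of the 8 macrophage markers 7 reached a mean TPM of 1, led by C1qc at 89.2 and 57.3 TPM and C1qa at 49.1 and 32.5 TPM. These markers summed to 245 and 176 TPM, and 6 of the 7 were lower in replicate 2. All 6 major histocompatibility complex class II genes were lower in replicate 2, with sums of 815 and 379 TPM, led by H2-Ab1 at 346 and 135 TPM and Cd74 at 291 and 142 TPM. Siglech, which marks plasmacytoid dendritic cells, the main source of interferon alpha, had 0.5 and 0.26 TPM. The 6 markers of that list summed to 35.9 and 22.9 TPM, led by Il3ra at 18.9 and 6.72 TPM, and of the 4 at TPM 1 in both libraries 3 were lower in replicate 2 and 1, Tcf4, was higher. The T and NK cell list summed to 2.52 and 1.39 TPM, with Trac, a constant part of the T cell receptor, at 0 in both. Only 1 of the 9 markers of that list had no read pair in either library. Its highest marker averaged 1.075 TPM, with a log2 ratio of -1.07. Endothelial markers were higher in replicate 2 for 6 of 7, with sums of 182 and 204 TPM, and so were 6 of 7 fibroblast markers, with sums of 205 and 303 TPM. B and plasma cell markers, with sums of 53.8 and 59.8 TPM, were higher for 2 of 4 and lower for 2. Lower in replicate 2 were all 4 red blood cell markers, each past 2-fold, with sums of 613 and 210 TPM. So were 4 of 5 mast cell markers, with sums of 89.9 and 45.4 TPM, and 6 of 7 smooth muscle markers, with sums of 7019 and 4362 TPM. The neutrophil list summed to 16.5 and 3.63 TPM, nearly all of it Retnlg, with S100a8 and Ly6g at 0 in both libraries. Epithelial lists differed as well. All 5 chief cell markers were higher in replicate 2, with sums of 103780 and 152100 TPM. Of the pit cell markers 4 of 6 were higher, with sums of 72975 and 71388 TPM. Lower in replicate 2 were 4 of 5 parietal cell markers, with sums of 7582 and 5197 TPM, and 4 of 7 squamous forestomach markers, with sums of 4293 and 3016 TPM. The 1 parietal cell marker that was higher was Gif, at a log2 ratio of 0.35, which is also in the chief cell list. The part of these cell types in the members' levels and ratios was not tested.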

How the data were processed

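The members and lists were chosen with earlier results of these data known. Per the README deposited beside the tables, the authors quantified each library on mm10 with GENCODE M4 gene models. The authors deposited expected counts, which need not be whole because a model divides shared reads, and TPM and FPKM per gene and transcript. Per the file headers, posterior mean TPM and the posterior standard deviation of the count, used here as a score, stand in the same tables. The authors deposited counts of reads per splice junction on mm9, pooled over both libraries. No source used here names the quantifier or its version.

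Symbols, transcript names and types and mm10 positions came from GENCODE M21; 42462 gene IDs (98.0%) had a symbol. Expected counts were rounded, scaled by TMM (edgeR 4.0.16; DESeq2 1.42.0 size factors as an alternative; R 4.3.3; Python 3.11.15), and given a prior count of 2 in log2 ratios. Spike-ins and phiX174 (1.14% and 0.252% of read pairs in replicate 1, 1.12% and 0.185% in replicate 2) stayed out of that scaling. Over 15234 genes the biological coefficient of variation between the libraries was 0.295. Levels are per-library TPM, and differences are set beside all genes averaging TPM 1 or more. Ratios and intervals were tested on simulated data. All members are named; of each pathway list, the 3 of highest level and those past 2-fold. Junctions were matched within mm9 by intron lengths and spacing, without converting coordinates. Promoter windows are those of RefSeq, GRCm38.p6. The posterior means, FPKM and other scalings were tried as alternatives. Alignment files, contigs and reads were not used here.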

Additional observations from a re-analysis of the deposited data

How the results depend on the processing

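No paired analysis was possible because both libraries belong to 1 group. The count of 32 members at 1 or more in both libraries ranged from 26 (threshold of TPM 2) to 36 (threshold of TPM 0.5) over the alternatives, and was 33 without replicate 1 and 34 without replicate 2. The median level of the members, 3.37 TPM, was 3.74 with posterior mean TPM, 3.72 with FPKM and 5.40 with Clps, Pgc and spike-ins left out of the total, and 3.44 to 3.58 with either library left out. With no filter on low values, 3 members were past 2-fold lower and 2 past 2-fold higher in replicate 2, and among the pathway genes 4 and 9; the members added were Ifit3 and Rsad2 among the lower and Ifit2 and Gbp7 among the higher. With a mean TPM of at least 5 the members' median log2 ratio was -0.22, against 0.01 at the lower filter, as more abundant genes were lower in replicate 2. On the log2(TPM + 1) scale the 1 member past 2-fold lower was Dhx58 (-1.14), not Ifnar2 (-0.75); under the scalings of counts it was Ifnar2. The cause of the difference between TPM and counts was not tested, but transcript makeup moved with it in both genes. Mx2 and Ifi44 had ratios of opposite sign on the scales of counts and TPM. Of 205 single-gene ratios under alternatives, 17 left the counting interval, 14 of them on the TPM scale, and none past 2-fold reversed. Of 82 single-gene levels, 43 moved by less than the SD between the libraries. Of the 39 others, 36 were levels with Clps, Pgc and spike-ins left out of the total, a change that raises every TPM. Depth limits the members below TPM 1, where Ifit2 had 2 read pairs in replicate 1.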
